A study of Mus musculus with 9 samples.

Results

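Noncoding genes that lie across a protein-coding gene on the other strand of the DNA were described in C2C12 myotubes, fused muscle cells grown from a mouse myoblast line. The 1472 genes were the rows of the deposited table typed lncRNA (long noncoding RNA) or TEC (a class of transcribed loci that awaits experimental evidence) with at least 90 counts over the 9 libraries, whose span overlapped an opposite-strand protein-coding span by at least 100 bp, with Gm20388 and A930016O22Rik left out. They were 6.45% of the 22831 rows of the table, and comprised 1312 lncRNA and 160 TEC rows. They were thus chosen by their count total in these same libraries and by their position, and both are given only as description. Each of 3 groups held 3 libraries made with a stranded mRNA kit: 200 µM palmitic acid with 1000 µM carnitine, 200 µM palmitic acid, and untreated control, all from wild-type C2C12 cells cultured in low serum to form myotubes. Palmitic acid is a saturated fatty acid, and carnitine carries long-chain fatty acids into mitochondria. The comparisons ask how myotubes respond to the fatty acid, and how that differs when carnitine is present. Nothing in the labels says that the replicates came from separate cultures, so p-values measure the spread between these libraries, which may be technical.

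An RNA read from the strand opposite a coding gene is called a natural antisense transcript. Such transcripts can start near the coding gene's own promoter and run away from it, lie within it, or meet its far end. Some, such as the Ube3a antisense RNA in neurons or the antisense RNAs of the Gnas locus, take part in imprinting, while for most no function is known. A stranded kit keeps the orientation of each read, so that reads of the 2 strands can be counted apart. The strand setting of the counting is not given in the sources used here, and reads of a noncoding gene therefore could not be told apart from reads of the coding gene opposite it. Every level below is a level as deposited.

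The overlap can reach into the coding part of the opposite gene, and the following stretches show it for 5 of the noncoding genes with the most counts. Each noncoding transcript held the reverse complement of 60 coding bases of its opposite gene. The first 3 pairs share the stretch that begins the opposite coding sequence: Apol7d against Fn1, which encodes fibronectin (chr1:71652923-71652982), Gm10252 against Ftl1, the ferritin light chain (chr7:45459572-45459631), and Rps18-ps4 against Rps18-ps6 (chr13:97760529-97760588). The noncoding gene is on the plus strand and the coding gene on the minus strand in each. Sequences are from GENCODE M21 transcripts and the positions of these stretches are GRCm38, whereas positions of whole genes elsewhere in the text are those of the table, which are GRCm39. Capitals mark the start codon in the coding gene and its complement in the noncoding one, and each strand is written 5′ to 3′.
Apol7d: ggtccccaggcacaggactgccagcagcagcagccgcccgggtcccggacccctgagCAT
Fn1: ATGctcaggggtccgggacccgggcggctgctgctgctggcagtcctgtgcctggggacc
Gm10252: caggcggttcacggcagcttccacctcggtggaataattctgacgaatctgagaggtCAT
Ftl1: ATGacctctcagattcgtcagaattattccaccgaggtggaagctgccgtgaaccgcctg
Rps18-ps4: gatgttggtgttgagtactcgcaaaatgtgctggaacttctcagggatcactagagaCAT
Rps18-ps6: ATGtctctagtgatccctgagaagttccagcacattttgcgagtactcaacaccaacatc

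The other end of an annotated coding sequence is covered in the pair Gm11175 against Jund, a subunit of the AP-1 transcription factor (chr8:70700021-70700080, Gm11175 on the minus strand and Jund on the plus strand). The same holds for Prss23os against Prss23, a secreted serine protease (chr7:89510601-89510660, Prss23os on the plus strand and Prss23 on the minus strand). Here capitals mark the last bases of the coding sequence as annotated and their complement. Whether a stop codon follows was not checked. Annotated coding sequences can be incomplete at this end, so a stretch, that of Prss23 included, may lie inside the full coding sequence.
Gm11175: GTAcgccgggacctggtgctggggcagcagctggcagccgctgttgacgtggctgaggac
Jund: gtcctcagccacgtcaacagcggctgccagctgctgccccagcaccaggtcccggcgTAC
Prss23os: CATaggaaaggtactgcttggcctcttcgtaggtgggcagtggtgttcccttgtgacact
Prss23: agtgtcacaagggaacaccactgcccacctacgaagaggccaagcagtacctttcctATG

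Among 1462 pairs whose transcripts could be compared, 255 noncoding genes (17.4%) held the reverse complement of the first 60 coding bases of their opposite gene. The last 60 coding bases as annotated were held by 160 (10.9%), and either stretch by 379 (25.9%). Coding sequences that are incomplete at their far end were not left out, so some last stretches may not be the true end. The first stretch was held by 164 of 462 pairs that meet start to start (35.5%), and by 17 of 326 that meet end to end (5.21%). The last stretch went the other way, with 65 of the end-to-end pairs (19.9%) and 16 of the start-to-start pairs (3.46%).

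Most of the noncoding genes carry no descriptive name. Of the 1472, 1018 were named Gm and a number, 324 were named as Riken clones, and 98 ended in os, for opposite strand. They formed 1637 pairs with 1539 coding genes, and where a noncoding gene had several opposite genes it was set against the one with the longest overlap. The median overlap of spans was 2162.5 bp. There were 138 with at least 2 opposite genes, up to the 12 protocadherin genes opposite BC037039, and Hoxa3, a homeobox gene of body patterning, had 5 noncoding genes opposite it. By position, 641 lay inside the span of the opposite gene, 466 overlapped it start to start, 328 end to end, and 37 spanned it. Exons overlapped those of an opposite gene by at least 100 bp for 1253 noncoding genes, by less for 157, and not at all for 60. This is according to GENCODE M21, which could be joined for 1470 of the 1472. Where there were several opposite genes, the largest exon overlap with any of them was taken, which may not be the gene of the pair.

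These genes carried a large share of all counts. Summed over the 9 libraries they held 7127973 counts, 25.1% of the total, and the top 15 of them held 21.01% of that sum. Their median total was 1527 counts, with a range of 90 to 206975. Per length, their median level was 41.5 FPKM (counts scaled to gene length and library size), with quartiles of 12.1 and 138 FPKM. Protein-coding rows with at least 90 counts had a median of 4.16 FPKM. The noncoding rows with at least 90 counts and no opposite protein-coding span had a median of 5.45 FPKM. At the edge of the rule, 4930547E14Rik, 6330562C20Rik and 8430432A02Rik had 90 counts each and were included, while Gm44206, Gm47550 and Gm50044 had 89 each and were not.

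As deposited, the noncoding gene stood above its opposite gene in most pairs, but this direction rests on the strand setting of the counting, which is not known. Had the counting taken the strand opposite to the kit's, the reads listed for a noncoding gene would, over shared exons, be those of the coding gene. The direction of the ratio would then turn, and the levels and fold changes of the noncoding genes below would be those of the coding genes. Of the 1472, 1379 (93.7%) had the higher mean FPKM, 939 of them at least 10-fold, and the median log2 ratio of noncoding over coding was 4.12. The minimum of 90 counts applied to the noncoding gene alone and raises this ratio. Without it, over 2532 noncoding rows with any count, the median was 2.50 and 68.8% were above their opposite gene, and the 1060 rows under the minimum had a median of -1.56. The ratio differed with position: its median was 4.503 inside the opposite gene, 4.36 end to end, 4.29 for those that span it, and 3.30 start to start. In the 60 pairs whose exons do not overlap it was 0.50, with 36 of them above their opposite gene. It was 4.18, with 95.2% above, where exons overlapped those of any opposite gene by at least 100 bp. Across the 1472 pairs the log2 FPKM of both genes had a Pearson r of 0.48, over pairs that share their libraries.

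**Figure D1:**
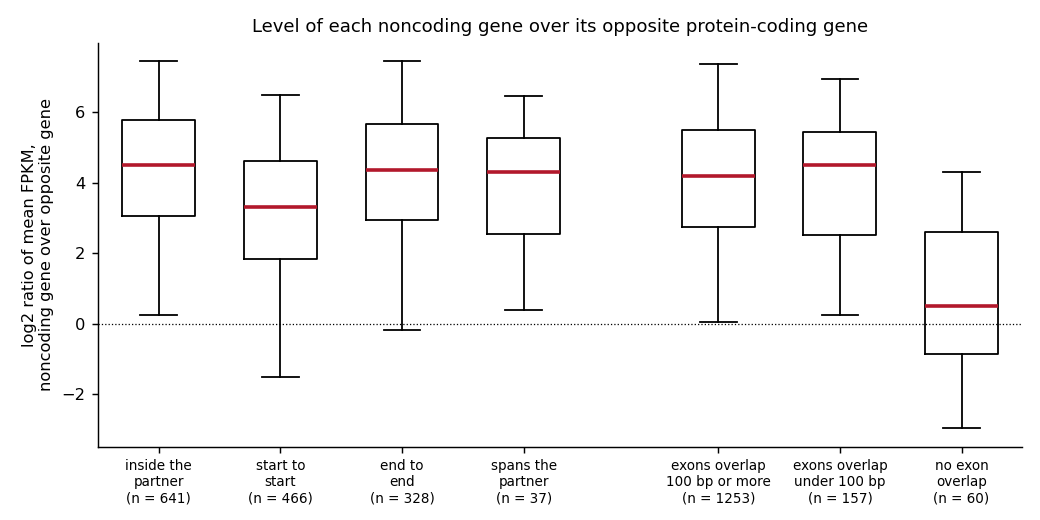
Log2 ratio of mean FPKM over the 9 libraries, noncoding gene over opposite protein-coding gene, by position of the spans (left 4 boxes) and by largest exon overlap with any opposite gene (right 3 boxes), with n the number of pairs. Boxes are quartiles, lines medians and whiskers the 5th and 95th percentiles, and the pairs with no exon overlap have a median of 0.50, the lowest of the 7 classes drawn.

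Gm28198 had the highest ratio (log2 14.69), followed by BC037039 (12.90) and Slfn5os (12.49), where the opposite genes Gm42715, Pcdhga1 and Slfn5 had 3, 25 and 6 counts in all. At the low end stood Gm15179 (-6.52), opposite Des, which encodes the muscle intermediate filament desmin. Its mean was 10.4 FPKM against 958 FPKM for Des. A230083G16Rik, opposite the thymosin-family gene Ptms, had a log2 ratio of -5.55, and Gm14252, opposite Cnbd2, one of -5.23. In all, 11 of the 1472 stood 10-fold or more below the opposite gene.

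Libraries differed in how much of their counts fell on these genes, and all 3 palmitic acid libraries lay below the other 6. Their share of all counts was 28.9, 30.8 and 30.0% with palmitic acid + carnitine, 13.3, 24.7 and 24.6% with palmitic acid, and 29.4, 30.4 and 24.97% in control. Palmitic acid replicate 1 stood far below the other 8 libraries, and control replicate 3 lay with the other palmitic acid libraries rather than with the other control libraries. The mean share was 29.9 ± 0.962% with palmitic acid + carnitine, 20.9 ± 6.57% with palmitic acid and 28.3 ± 2.91% in control (SD, n = 3 each), given as a description with no test. The opposite coding genes had shares in the reverse order, with 6.54, 5.83 and 5.94% with palmitic acid + carnitine, 10.8, 7.73 and 7.74% with palmitic acid, and 5.73, 5.56 and 7.51% in control. The median log2 ratio within a library was 4.37, 4.74 and 4.70 with palmitic acid + carnitine, 2.36, 3.85 and 3.80 with palmitic acid, and 4.74, 4.85 and 3.92 in control. In all 9 libraries more than 85% of the noncoding genes stood above their opposite gene, down to 85.1% in palmitic acid replicate 1.

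**Figure D2:**
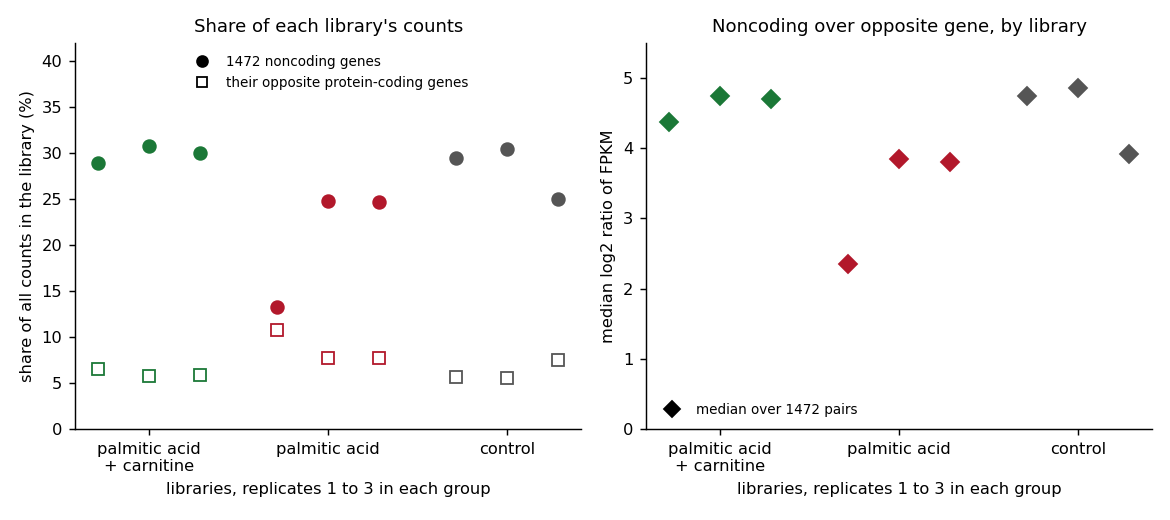
Left, percent of each library's counts on the 1472 noncoding genes (filled circles) and on their opposite protein-coding genes (open squares), and right, the median log2 FPKM ratio of the pairs, with 1 point per library and replicates 1 to 3 from left to right. Palmitic acid replicate 1 has the lowest noncoding share, 13.3%, and the lowest ratio, 2.36.

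Total counts ran between 2.45 and 3.09 M with palmitic acid + carnitine, 3.33 and 5.14 M with palmitic acid, and 2.31 and 3.31 M in control, the largest being palmitic acid replicate 1. All 10 myotube markers looked for, among them Myog, Acta1 and Ttn, had counts in all 9 libraries. Their summed level was 9605 to 11512 CPM (counts scaled to library size) with palmitic acid + carnitine. It was 15012 to 21726 CPM with palmitic acid and 8672 to 13756 CPM in control. Marker levels in this paragraph were scaled to total counts alone, without TMM factors. They are not on the scale of the CPM of single genes below, which use TMM factors. The TMM factor of palmitic acid replicate 1 was 1.52, so its marker levels would be lower on that scale. Fibroblast markers, of which 4 of 5 had counts in all 9 libraries, summed to 1988 to 2573 CPM with palmitic acid + carnitine, 3397 to 6502 CPM with palmitic acid and 1693 to 3441 CPM in control. The macrophage markers summed to 236 to 248 CPM, 95.6 to 210.3 CPM and 203 to 274 CPM in the same groups, with 5709 counts of Csf1r in all, 45 of Cd68 and 2 of Adgre1. The endothelial markers Cdh5 and Kdr and the adipocyte marker Cidec had 5, 4 and 4 counts in all. The part of depth, marker levels and single libraries in the comparisons below was not tested, and fewer cells of a type cannot be told apart from less RNA per cell.

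With palmitic acid, nearly all of the noncoding genes were lower than in control when libraries were scaled on all rows, and none passed the test. This was not so when libraries were scaled on these genes alone, which sets their median near 0 by construction. Scaled on all rows, 1431 of the 1470 with enough counts to be tested had a log2 fold change below 0. The median over the 1470 was -0.82, against 0.06 over all 12548 rows tested. At an adjusted p under 0.05 (edgeR's quasi-likelihood test with Benjamini-Hochberg adjustment over all rows), 0 noncoding genes were called, as were 0.0% of all rows, with 0.139 as the smallest adjusted p. At an unadjusted p under 0.05, 658 were lower and 0 higher, where 13.9% of all rows were lower and 5.67% higher. The groups did not overlap for 476 that were lower and 1 that was higher, Gm34510, against 10.9% and 11.7% of all rows. DESeq2 called 152 lower and 0 higher at its adjusted p, beside 6.37% and 0.508% of all rows it tested, edgeR without the filter on low counts called 418 lower and 0 higher, beside 4.59% and 0.302% of all rows, and edgeR without control replicate 3 called 189 lower and 0 higher, beside 4.64% and 1.35%.

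The fold change depended on 2 libraries and on the scaling. Without palmitic acid replicate 1 the median was -0.45, without control replicate 3 it was -0.996, and without both it was -0.63 with 669 of 1471 called lower and 0 higher by edgeR, beside 13.0% and 6.18% of all rows. Libraries scaled on the noncoding genes alone, a setting chosen after seeing the data, put their median at 0.00 and that of all rows at 1.15. A median near 0 follows from that construction. By position the order was that of the main scaling, with medians of 0.26 start to start and -0.27 end to end. In the main scaling the medians were -0.60 start to start, -0.89 inside the opposite gene, -0.80 for those that span it and -1.07 end to end. The 185 noncoding rows tested that have no opposite protein-coding span had a median of -0.90, and 1220 opposite coding genes had one of 0.15.

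The 5 noncoding genes with the smallest p for palmitic acid against control were all lower with the fatty acid. Gm6566, opposite the tyrosine-breakdown enzyme gene Gstz1 (chromosome 12, 87196249 to 87202260), had 18.98, 14.6 and 11.9 CPM with palmitic acid + carnitine, 3.74, 2.77 and 2.58 CPM with palmitic acid and 25.5, 12.00 and 10.7 CPM in control. All 3 palmitic acid libraries lay below the other 6. Its log2 fold change was -2.34 ± 0.43 (SE) for palmitic acid against control and 2.28 ± 0.43 for palmitic acid + carnitine against palmitic acid, with adjusted p of 0.139 and 0.125 (edgeR). Unlike most others it stood no higher than its opposite gene, at 9.14 FPKM against 9.62 FPKM for Gstz1.

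Gm43435, opposite Tmem167b, had 60.4, 135 and 131 CPM with palmitic acid + carnitine, 12.3, 15.5 and 27.2 CPM with palmitic acid and 163, 152 and 32.8 CPM in control. Gm16185, whose exons do not overlap those of Slc25a36, a mitochondrial nucleotide carrier gene, had 26.9, 42.5 and 45.9 CPM with palmitic acid + carnitine, 2.06, 3.05 and 9.74 CPM with palmitic acid and 79.6, 64.3 and 8.07 CPM in control. In both, control replicate 3 was far below the other 2 control libraries, and for Gm16185 it lay below palmitic acid replicate 3. The log2 fold changes for palmitic acid against control were -2.67 ± 0.54 for Gm43435 and -3.41 ± 0.72 for Gm16185 (edgeR adjusted p of 0.139 for each). Without control replicate 3 they were -3.11 and -3.94.

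Gm20628, which spans the histone H3 gene H3c13, had 6.07, 17.7 and 16.9 CPM with palmitic acid and 64.3, 53.6 and 30.8 CPM in control, a log2 fold change of -1.89 ± 0.40. Gm44777, opposite Pik3c2a, a lipid kinase gene, had 4.77, 13.01 and 14.3 CPM with palmitic acid and 159, 153 and 16.7 CPM in control, a log2 fold change of -3.39 ± 0.72. For both genes the groups did not overlap, though for Gm44777 control replicate 3 again lay near the palmitic acid libraries. Both had an adjusted p of 0.139 by edgeR.

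With palmitic acid + carnitine, nearly all of the noncoding genes were higher than with palmitic acid alone when libraries were scaled on all rows, and none passed. This was not so when libraries were scaled on these genes alone, which sets their median near 0 by construction. Scaled on all rows, 1441 of the 1470 tested had a log2 fold change above 0. The median over the 1470 was 0.92, against -0.10 over all rows. At an adjusted p under 0.05, 0 were called by edgeR, as were 0.0% of all rows, and no adjusted p was under 0.125. At an unadjusted p under 0.05, 835 were higher and 0 lower, where 15.9% of all rows were higher and 8.34% lower. The groups did not overlap for 1038 that were higher and 2 that were lower, 9330151L19Rik and Gm10419, against 20.0% and 18.3% of all rows. DESeq2 called 333 higher and 0 lower, beside 11.6% and 1.89% of all rows it tested, and edgeR without the filter called 552 higher and 0 lower, beside 5.33% and 0.648%. Without control replicate 3 edgeR called 3 higher, Gm15868, Gm43435 and 3200001D21Rik, beside 0.0468% of all rows. Since both comparisons use the same palmitic acid libraries, they are not independent.

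Without palmitic acid replicate 1 the median was 0.55, and without it and control replicate 3 it was 0.55 with 611 called higher and 0 lower, beside 11.0% and 2.62% of all rows. Scaled on the noncoding genes alone the median was 0.01, with all rows at -1.35. By position, the medians in the main scaling were 0.69 start to start, 1.02 inside the opposite gene, 0.88 for those that span it and 1.13 end to end.

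Beside Gm6566 and Gm43435, already described, the smallest p belonged to 3200001D21Rik, Peak1os and Tnfsf13os. 3200001D21Rik, opposite the mitochondrial kinase-like gene Adck1, had 20.4, 26.9 and 20.8 CPM with palmitic acid + carnitine, 2.84, 3.88 and 6.02 CPM with palmitic acid and 27.02, 20.6 and 6.91 CPM in control. Peak1os, opposite the cytoskeletal scaffold gene Peak1, had 32.8, 42.5 and 46.3 CPM with palmitic acid + carnitine, 6.84, 10.2 and 19.8 CPM with palmitic acid and 31.4, 39.01 and 34.6 CPM in control. For both, every palmitic acid + carnitine library lay above every palmitic acid library, and the log2 fold changes were 2.45 ± 0.48 and 1.75 ± 0.35. Tnfsf13os, at the locus of the immune ligand gene Tnfsf13, had 18.3, 25.5 and 26.7 CPM with palmitic acid + carnitine and 3.61, 6.09 and 8.88 CPM with palmitic acid, a log2 fold change of 1.96 ± 0.40, also with no overlap. The edgeR adjusted p was 0.125 for each of the 3.

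**Figure D3:**
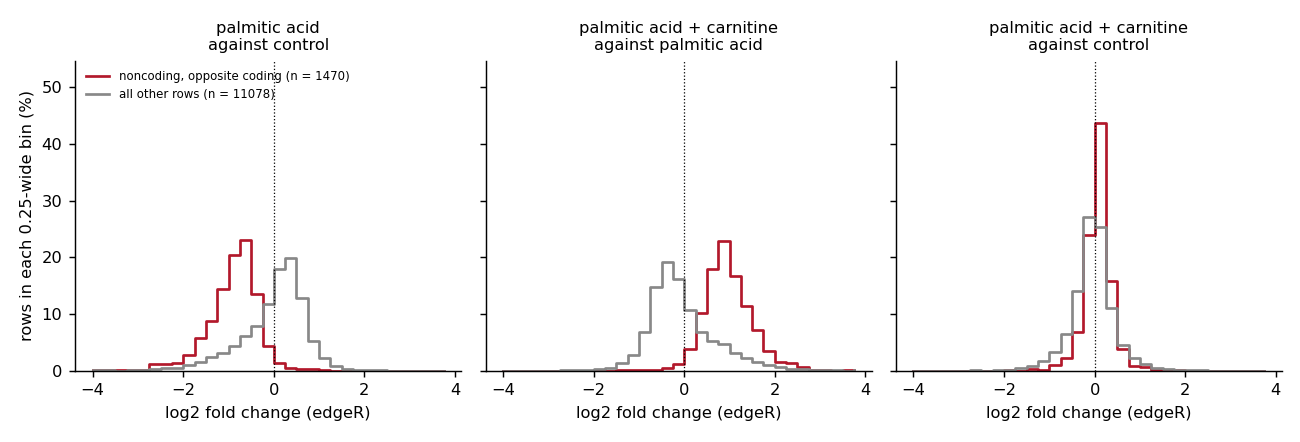
Share of rows in each 0.25-wide bin of the edgeR log2 fold change for the noncoding genes (red) and all other rows tested (grey) in the 3 comparisons, with values past 4 on either side in the end bins. The red curve has its median at -0.82 for palmitic acid against control, at 0.92 for palmitic acid + carnitine against palmitic acid and at 0.09 for palmitic acid + carnitine against control.

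Between palmitic acid + carnitine and control the noncoding genes had a median log2 fold change of 0.09, against -0.02 over all rows, and without control replicate 3 the median was -0.09. By edgeR 0 noncoding genes were called and 0.0% of all rows, with the smallest adjusted p at 1.00. At an unadjusted p under 0.05, 5 were higher and 3 lower, beside 0.877% and 1.88% of all rows, and DESeq2 called 0, as it did 0.0% of all rows. EdgeR without the filter on low counts called 2 higher, Gm14703 and Gm27176, beside 0.0219% of all rows. Besides the 5 genes described next, the 8 were Gm10840 opposite Limd2, Gm16083 opposite Cd55 and Cdk19os opposite Cdk19, with log2 fold changes of 1.49, 1.63 and -0.85. The groups did not overlap for 109 that were higher and 23 that were lower, against 3.69% and 4.84% of all rows.

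Gm34510, opposite Dact2, a gene of Wnt signalling, had 7.25, 5.67 and 6.79 CPM with palmitic acid + carnitine, 2.97, 4.43 and 4.30 CPM with palmitic acid and 1.96, 1.71 and 1.44 CPM in control, from 116 counts in all. Every library with palmitic acid, with or without carnitine, lay above every control library, and the log2 fold change for palmitic acid + carnitine against control was 1.94 ± 0.61. Gnasas1, an antisense transcript of the imprinted Gnas locus, had 21.7, 45.3 and 21.2 CPM with palmitic acid + carnitine, 6.32, 25.2 and 12.3 CPM with palmitic acid and 15.2, 14.6 and 5.76 CPM in control. The palmitic acid + carnitine libraries lay above the control libraries, with a log2 fold change of 1.33 ± 0.52, while Gnasas1 itself was far lower than Gnas (5.64 FPKM against 83.6 FPKM). Gm44646, opposite the fast-muscle myosin-binding protein gene Mybpc2, overlapped between those groups (8.63, 17.5 and 16.98 CPM with palmitic acid + carnitine and 5.89, 9.86 and 4.61 CPM in control).

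Gas5, a host gene of small nucleolar RNAs, was lower with palmitic acid + carnitine, at 3.11, 1.89 and 0.425 CPM with palmitic acid + carnitine, 7.61, 5.54 and 2.01 CPM with palmitic acid and 8.35, 4.72 and 6.63 CPM in control. It had 151 counts in all, and its exons do not overlap those of Zbtb37 opposite it. The log2 fold change was -1.81 ± 0.74 against control and -1.46 ± 0.73 against palmitic acid alone. Gm15417, opposite the transcription factor gene Zbtb7b, had 2.07, 7.08 and 4.25 CPM with palmitic acid + carnitine and 21.1, 6.00 and 8.07 CPM in control, with overlap. The edgeR adjusted p for palmitic acid + carnitine against control was 1.00 for all 5 of these genes.

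Gm11175, opposite Jund (chromosome 8, 71151811 to 71152729), had 206975 counts in all, the most of the 1472, with 9177, 8633 and 8089 CPM with palmitic acid + carnitine, 3534, 8056 and 7372 CPM with palmitic acid and 7336, 7830.4 and 7966 CPM in control. Palmitic acid replicate 1 alone stood low, and the other 2 palmitic acid libraries lay close to the control libraries, the highest of them above all 3. The log2 fold change for palmitic acid against control was -0.29 ± 0.35, and without palmitic acid replicate 1 it was 0.00. Junos, opposite the AP-1 gene Jun (chromosome 4, 94939771 to 95055555), had 4231, 4798 and 4298 CPM with palmitic acid + carnitine, 994, 3171 and 3271 CPM with palmitic acid and 4362, 4829 and 3389 CPM in control. Here the palmitic acid libraries all lay below the other 6 libraries, and the log2 fold change was -0.76 ± 0.40 for palmitic acid against control (edgeR adjusted p = 0.304) and 0.84 ± 0.40 for palmitic acid + carnitine against palmitic acid (adjusted p = 0.215).

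**Figure D4:**
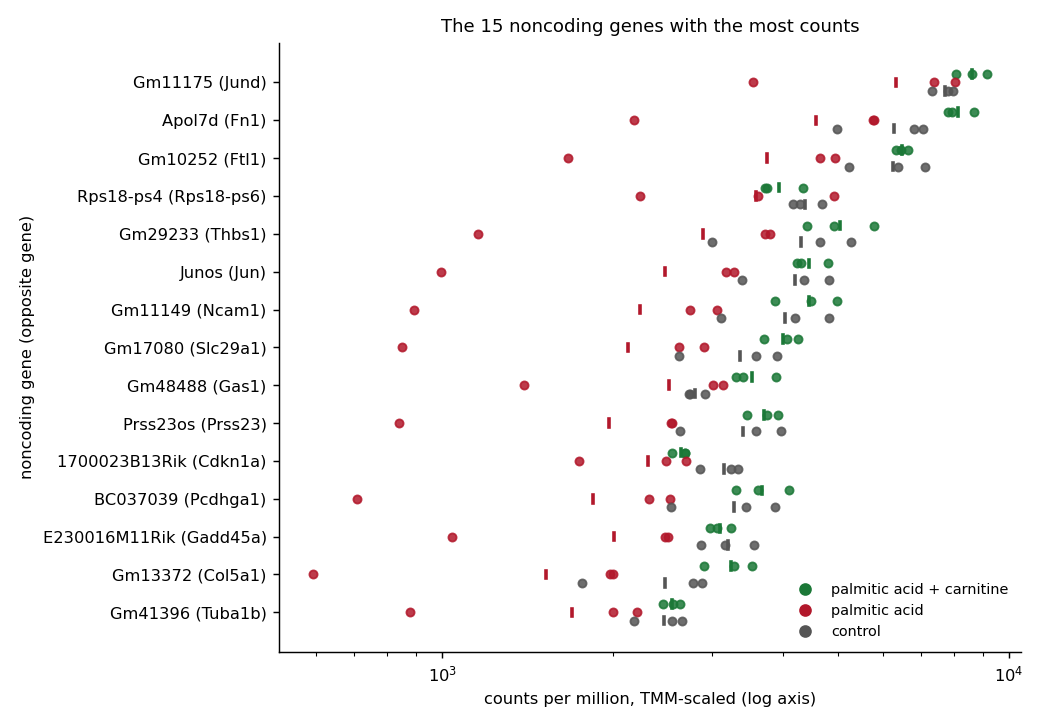
Level of the 15 noncoding genes with the most counts in each library (CPM with TMM factors, log axis), with the opposite gene in brackets. Points are libraries, short bars are group means, and in all 15 genes the lowest point is palmitic acid replicate 1, as with Gm11175 at 3534 CPM.

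1700023B13Rik, opposite the cell cycle inhibitor gene Cdkn1a, had 2682, 2685 and 2547 CPM with palmitic acid + carnitine, 1741, 2699 and 2489 CPM with palmitic acid and 3240.4, 3333 and 2853 CPM in control. All 3 control libraries lay above the palmitic acid libraries, and the palmitic acid + carnitine libraries lay below the control libraries too, with a log2 fold change of 0.19 ± 0.28 for palmitic acid + carnitine against palmitic acid. E230016M11Rik, opposite the DNA damage response gene Gadd45a, had 2976, 3236 and 3053 CPM with palmitic acid + carnitine, 1042, 2504 and 2477 CPM with palmitic acid and 3158, 3549 and 2863 CPM in control. The palmitic acid libraries lay lowest, with a log2 fold change of -0.67 ± 0.34 against control. Gm48488, opposite the growth arrest gene Gas1, differed less, at -0.15 ± 0.33.

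Gm10252, opposite Ftl1, the ferritin light chain of iron storage (chromosome 7, 45108893 to 45109724), had 6451, 6658 and 6336 CPM with palmitic acid + carnitine, 1666, 4928 and 4648 CPM with palmitic acid and 6367, 7133 and 5234 CPM in control. The palmitic acid libraries lay below all others, with a log2 fold change of -0.74 ± 0.39 against control (edgeR adjusted p = 0.301). Ftl1 itself had 65.3, 54.8 and 55.6 FPKM with palmitic acid + carnitine, 140.4, 84.97 and 85.7 FPKM with palmitic acid and 30.7, 38.05 and 103 FPKM in control. These FPKM carry no TMM factors, unlike the CPM of Gm10252, so the orders of libraries are not on the same scale. The TMM factor was 1.52 in palmitic acid replicate 1 and 1.05 in control replicate 3. Palmitic acid replicate 1, highest for Ftl1 in FPKM, need not be highest with TMM factors. Rps18-ps4 had 4339.9, 3751 and 3720.0 CPM with palmitic acid + carnitine, 2237, 4925 and 3605 CPM with palmitic acid and 4278, 4681 and 4164 CPM in control. Its values are uncertain, since it lies on the strand opposite Rps18-ps6, named as a copy of the ribosomal protein gene Rps18, and how reads of other Rps18 copies were assigned was not tested. Gm17080, opposite the nucleoside transporter gene Slc29a1, and Prss23os had log2 fold changes of -0.66 ± 0.40 and -0.78 ± 0.39 for palmitic acid against control. Gm11149, opposite the cell adhesion gene Ncam1, BC037039 and Gm41396, opposite the tubulin gene Tuba1b, had -0.86 ± 0.41, -0.83 ± 0.41 and -0.54 ± 0.34.

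Of 20 matrix and cytoskeleton genes looked for, 5 had noncoding genes opposite them, 6 in all. All 6 were below 0 for palmitic acid against control (median log2 fold change -0.50), and all 6 above 0 for palmitic acid + carnitine against palmitic acid with a median of 0.82, none passing edgeR's adjusted threshold. Of all 1470 noncoding genes tested, 1431 were below 0 in the former comparison and 1441 above 0 in the latter, with medians of -0.82 and 0.92. Nothing particular to the matrix is read from the counts. Apol7d (chromosome 1, 71691996 to 71702002), which overlaps Fn1 start to start, had 7933, 8675 and 7809 CPM with palmitic acid + carnitine, 2180.1, 5756 and 5788 CPM with palmitic acid and 6795, 7073 and 4978 CPM in control. All palmitic acid + carnitine libraries lay above all others, and the log2 fold change against palmitic acid was 0.83 ± 0.38 (edgeR adjusted p = 0.201). Fn1 had 469.8, 373 and 383 FPKM with palmitic acid + carnitine, 983, 569 and 577 FPKM with palmitic acid and 303, 284 and 472 FPKM in control. These FPKM carry no TMM factors, unlike the CPM of Apol7d, so the orders of libraries are not on the same scale. Gm29233, opposite the matrix glycoprotein gene Thbs1, had the highest level per length of all 1472, at 13803 FPKM against 186 FPKM for Thbs1. Gm13372, opposite the collagen gene Col5a1, had 2901, 3530.4 and 3269 CPM with palmitic acid + carnitine, 592, 1976 and 2001 CPM with palmitic acid and 2768, 2881 and 1766 CPM in control, with all palmitic acid + carnitine libraries above all others and a log2 fold change of 1.09 ± 0.41 against palmitic acid.

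Among genes of the sarcomere and contraction, 10 had noncoding genes opposite them, 12 in all, and 11 of these 12 stood above the opposite gene, the exception being Gm15179 opposite Des. Their median log2 fold change was -0.90 for palmitic acid against control, with 11 of 12 below 0, and 0.89 for palmitic acid + carnitine against palmitic acid, with 12 of 12 above 0. None of the 12 passed edgeR's adjusted threshold, and 7 and 5 had an unadjusted p under 0.05 in these comparisons, in the direction given by the medians. The same threshold was met by 44.8% and 56.8% of the 1470 noncoding genes tested and by 13.9% and 15.9% of all rows in those directions, and nothing particular to the sarcomere is read from the counts. Gm31251, inside Myh7, the slow myosin heavy chain gene (chromosome 14, 55216850 to 55229058), had 897, 1129.6 and 1159 CPM with palmitic acid + carnitine, 222, 743 and 826 CPM with palmitic acid and 1190.2, 1368 and 911 CPM in control. The palmitic acid libraries lay below all others, and the log2 fold change against control was -0.95 ± 0.41 (edgeR adjusted p = 0.224), where Myh7 had 0.01 ± 0.27. Mhrt, a noncoding RNA of the same locus studied in the mouse heart and named here after its values were seen, had 656, 790.0 and 763 CPM with palmitic acid + carnitine, 232, 623 and 561 CPM with palmitic acid and 776, 913 and 694 CPM in control. It followed the same order of groups, with a log2 fold change of -0.75 ± 0.34 for palmitic acid against control.

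Myhas, which runs opposite Myh1 among the fast myosin heavy chain genes (chromosome 11, 67102082 to 67128399), had 663, 972 and 977 CPM with palmitic acid + carnitine, 147, 554 and 618 CPM with palmitic acid and 1084, 1227 and 613 CPM in control. Control replicate 3 lay within the palmitic acid range, and the log2 fold change was -1.15 ± 0.45 for palmitic acid against control, where Myh1 had -0.23 ± 0.26. Gm49540, opposite Mb, the gene of the oxygen-binding protein myoglobin, had 793, 910.5 and 953 CPM with palmitic acid + carnitine, 230.5, 679 and 688 CPM with palmitic acid and 1210.3, 1208 and 797 CPM in control. The groups did not overlap between palmitic acid and control, with a log2 fold change of -1.01 ± 0.38. Gm43361, opposite the calcium pump gene Atp2a2, had -1.17 ± 0.53 for palmitic acid against control and 1.41 ± 0.53 for palmitic acid + carnitine against palmitic acid. Gm15179, opposite Des, had 17, 57 and 30 counts with palmitic acid + carnitine, 10, 12 and 16 with palmitic acid and 30, 31 and 21 in control, few beside the 111145 counts of Des in all.

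Of lipid and mitochondrial genes, 3 had a noncoding gene opposite them, all 3 below 0 for palmitic acid against control and above 0 for palmitic acid + carnitine against palmitic acid, with medians of -0.81 and 1.08 and none past the adjusted threshold. Of all 1470 noncoding genes tested, 1431 were below 0 in the former comparison and 1441 above 0 in the latter, with medians of -0.82 and 0.92. Nothing particular to lipid genes is read from the counts. Gm48342, opposite the cholesterol synthesis gene Hmgcs1 (chromosome 13, 120159896 to 120166085), had 1332, 1826 and 1751 CPM with palmitic acid + carnitine, 198, 612 and 734 CPM with palmitic acid and 1326, 1490.0 and 729 CPM in control. The palmitic acid + carnitine libraries lay above all palmitic acid libraries, with a log2 fold change of 1.67 ± 0.44 (edgeR adjusted p = 0.125), where Hmgcs1 had -0.18 ± 0.28. Gm16323, opposite Crat, the carnitine acetyltransferase gene, had 135, 165 and 145 CPM with palmitic acid + carnitine, 58.6, 145 and 138 CPM with palmitic acid and 124, 197 and 132 CPM in control. Only palmitic acid replicate 1 stood apart, and the log2 fold change for palmitic acid + carnitine against palmitic acid was 0.39 ± 0.33, or 0.06 without that library. Gm10603, which overlaps the ends of C2cd3 and of the mitochondrial uncoupling protein gene Ucp3, had 1.08 ± 0.48.

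Gm45507, opposite the mitophagy receptor gene Bnip3, had 1084, 1718 and 1699 CPM with palmitic acid + carnitine, 169, 514 and 629.5 CPM with palmitic acid and 1747, 1689 and 609 CPM in control, and was chosen after values were seen. Control replicate 3 lay among the palmitic acid libraries, and the log2 fold change was -1.62 ± 0.49 for palmitic acid against control and 1.78 ± 0.49 for palmitic acid + carnitine against palmitic acid. Gm15441, which spans Txnip, a glucose-responsive inhibitor of thioredoxin, had 1105, 1486 and 1455 CPM with palmitic acid + carnitine, 240.2, 699.7 and 733 CPM with palmitic acid and 1407, 1581 and 748 CPM in control. The palmitic acid libraries lay below all others, with log2 fold changes of -1.16 ± 0.41 and 1.27 ± 0.41 in the same comparisons (edgeR adjusted p of 0.178 and 0.133). Gm15943, opposite the muscle atrophy ubiquitin ligase gene Fbxo32, had -0.81 ± 0.30 and 0.93 ± 0.30. Noncoding genes opposite myogenic regulators numbered 4, with a median of -1.09 for palmitic acid against control and none past the adjusted threshold. The median over all 1470 noncoding genes tested was -0.82. Among the 4 were 1700113A16Rik opposite the transcription factor gene Mef2d (-1.03 ± 0.45 for palmitic acid against control) and 0610009E02Rik and Gm13568 opposite the receptor gene Notch1 (-1.15 ± 0.44 and -1.26 ± 0.40).

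At imprinted loci, 5 noncoding genes lay opposite 3 coding genes, with 3 of the 5 below 0 for palmitic acid against control and all 5 above 0 for palmitic acid + carnitine against palmitic acid, none past the adjusted threshold. Of all 1470 noncoding genes tested, 1431 were below 0 in the former comparison and 1441 above 0 in the latter. Nothing particular to imprinted loci is read from the counts. Of them, 3 lay opposite Ube3a, a ubiquitin ligase gene silenced by an antisense transcript in neurons. Snhg14, the long transcript that holds that antisense RNA (chromosome 7, 58957672 to 59625507), had 183, 396 and 372 CPM with palmitic acid + carnitine, 20.8, 68.9 and 113 CPM with palmitic acid and 524, 437 and 109 CPM in control. Palmitic acid replicate 1 was lowest, control replicate 3 lay among the palmitic acid libraries, and all palmitic acid + carnitine libraries lay above all palmitic acid ones. The log2 fold change was -2.40 ± 0.61 for palmitic acid against control and 2.23 ± 0.61 for palmitic acid + carnitine against palmitic acid (edgeR adjusted p of 0.139 and 0.125). Gm44560, which lies inside Ube3a, had -2.61 ± 0.66 and 2.29 ± 0.65 in the same comparisons, and 9330162G02Rik at the start of Ube3a had -0.88 ± 0.30 and 0.77 ± 0.30. Ube3a itself had a mean of 0.642 FPKM against 8.60 FPKM for Snhg14.

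Among genes named for the opposite strand, Rab10os, opposite a vesicle transport GTPase gene, and Scpep1os, opposite a carboxypeptidase gene, had the lower values with palmitic acid. Rab10os had 470.1, 779 and 765 CPM with palmitic acid + carnitine, 86.98, 261 and 336 CPM with palmitic acid and 871, 886 and 335 CPM in control. Scpep1os had 332, 502 and 484 CPM with palmitic acid + carnitine, 39.4, 157 and 206 CPM with palmitic acid and 410.1, 493 and 201 CPM in control. In both, control replicate 3 lay at or near the palmitic acid libraries while palmitic acid + carnitine did not overlap palmitic acid, with log2 fold changes against palmitic acid of 1.56 ± 0.48 and 1.72 ± 0.50. The other members of this group with the most counts, Tomm6os, Mxra8os, Anxa11os, Nckap5los, Ino80dos, Unc45bos, Kdm6bos, Rbm3os, Rbfaos and Slfn5os, had log2 fold changes between -1.32 (Ino80dos) and -0.31 (Anxa11os) for palmitic acid against control and between 0.44 (Slfn5os) and 1.42 (Ino80dos) for palmitic acid + carnitine against palmitic acid.

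From library to library most of the noncoding genes followed their common share of counts. The level of a gene (log2 CPM) had a median Pearson r of 0.94 with the share of counts on all 1472, and 968 of the 1470 had an r over 0.9, while 14 had one below 0. Over 1220 opposite coding genes the median r with the same share was -0.27. These are 9 libraries that share depth and scaling, and the share includes the noncoding gene itself. Levels are divided by TMM factors, which ran from 0.860 in control replicate 2 to 1.52 in palmitic acid replicate 1, where the share was lowest. The part of scaling in r was not tested, and the values are a description. Between a noncoding gene and its own opposite gene the median r was -0.22 over 1300 pairs, with 839 below 0. For palmitic acid against control, 791 of these pairs had the noncoding gene below 0 and the coding gene above 0, 477 had both below 0, 20 both above 0 and 12 the reverse of the first. For palmitic acid + carnitine against palmitic acid, 836 pairs had the noncoding gene above 0 and the coding gene below 0, 441 both above 0, 13 both below 0 and 10 the reverse of the first. Of all noncoding genes tested, 97.3% were below 0 in the former comparison and 1.97% in the latter. Opposite coding genes were below 0 for 37.8% and 65.4%, beside 37.4% and 65.5% of all protein-coding rows. Whether pairs differ from unpaired genes was not tested, and nothing particular to the pairs is read from the counts.

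The profile most like that of Gm11175 belonged to 9330160F10Rik (r = 0.997 over 9 libraries), then 1810012K08Rik (r = 0.993) and the coding gene Mfsd11 (r = 0.992). 9330160F10Rik had 416, 379.7 and 350.3 CPM with palmitic acid + carnitine, 165, 346 and 322 CPM with palmitic acid and 328, 352 and 346 CPM in control. Some genes did not follow the rest. Gm45667, opposite the caveolae gene Cavin3 and named here after its values were seen, had the lowest r with the noncoding share (0.49) among those with at least 4500 counts, at 649, 492 and 584 CPM with palmitic acid + carnitine, 466, 654 and 506 CPM with palmitic acid and 606, 549.5 and 600.1 CPM in control. All 3 groups overlapped, and its log2 fold change was -0.11 ± 0.26 for palmitic acid against control. Gm42922, opposite the signalling inhibitor gene Spry1, was next (r = 0.62), at 229.5, 224 and 203 CPM with palmitic acid + carnitine, 140.4, 282 and 228 CPM with palmitic acid and 184, 210.5 and 222 CPM in control. Palmitic acid replicate 1 was its lowest library and palmitic acid replicate 2 its highest, and the log2 fold change was 0.08 ± 0.28.

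Promoter windows of 300 bases (250 before and 50 after the start, RefSeq, GRCm38.p6) were matched by gene for 466 of the 1472, with 575 windows. Their median GC content was 56.0%, against 61.3% in 1493 windows of the opposite genes and 52.7% in all 32851 windows. The motif CAGCTG, the E-box read by myogenic factors, was found in 18.8% of them and in 16.3% of all windows, CCAAT in 32.5% and 37.4%, and TATAAA in 7.13% and 13.6%, with both strands searched. The starts are those of RefSeq and were not matched to the starts of the spans counted. The window of Myhas (chr11:67237232-67237531, minus strand, GRCm38.p6) is shown since its locus is described above, with TATAAA in capitals. These matches are a description of the letters and say nothing about binding.
Myhas: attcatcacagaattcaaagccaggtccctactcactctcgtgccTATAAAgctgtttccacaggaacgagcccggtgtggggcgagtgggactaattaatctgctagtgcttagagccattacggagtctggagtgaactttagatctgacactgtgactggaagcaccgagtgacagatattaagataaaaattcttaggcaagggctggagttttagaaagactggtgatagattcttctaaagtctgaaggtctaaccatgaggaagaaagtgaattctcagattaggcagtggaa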

How the data were processed

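RNA-seq libraries were made from C2C12 myotubes in 3 groups of 3. Per the file headers, the authors deposited a count and an FPKM value per gene and library, with position, strand and type. Tools listed in the submitters' processing notes were HISAT2 2.2.0 and Bowtie2 2.4.2, HTSeq 0.13.5, Trim Galore 0.6.4 and edgeR, and the builds listed were GRCm39, GRCh38 and Rnor_6.0, with no role given. The strand setting of the counting is not given in the sources used here.

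Counts were tested with edgeR 4.0.16 (R 4.3.3) by the quasi-likelihood test over the 12548 rows that passed filterByExpr, with TMM factors, all 9 libraries in 1 fit and Benjamini-Hochberg adjustment over all rows at 0.05. Log2 ratios within pairs used mean FPKM and a pseudocount of 0.01. DESeq2 1.42.0, limma 3.58.1 on log2(FPKM + 1), a paired fit, other scalings, filters and overlap rules, and each library left out served as alternatives. The fits were also run on simulated counts. Those had no outlying libraries and no shift shared by the noncoding genes, so the run says nothing on these features of the data.

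The rule for named genes took the 15 with the most counts, the 5 with the smallest p in each comparison, up to 15 of known noncoding genes or those ending in os, as or the like with the most counts, the 3 with the most counts per list of opposite genes, the 3 highest and 3 lowest ratios, and the closest profiles to the gene with the most counts. Others were chosen after values were seen: Mhrt, Gm45507, Gm45667, Gm42922, and any named for a small count of calls. The members and lists were chosen with earlier results of these data known. Total counts of 2.31 to 5.14 M per library limit the precision of low rows.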

Additional observations from a re-analysis of the deposited data

How the results depend on the processing

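For the counts of genes called, the medians, the shares and the ratio, 175 values under alternatives kept their place and 30 moved. A median, share or ratio kept its place if it shifted by less than the SD between replicates, and a count if it stayed at 0. That SD includes palmitic acid replicate 1 and control replicate 3 where their groups enter, so 175 is no measure of stability. Single-gene results were compared only for the 5 genes with the smallest p in each comparison, and 0 of these reversed. They were chosen for small p in these same data, and the other named genes were not included. No noncoding gene was called in the main fit, so the alternatives that moved counts added calls. Without the filter on low counts the noncoding genes called were 418, 552 and 2 (all rows 1118, 1366 and 5) in the 3 comparisons, taken in the order of the report. DESeq2 called 152 and 333 in the first and second comparisons (all rows 474 and 873), and limma on log2(FPKM + 1) called 1 row in the second. Without control replicate 3 and palmitic acid replicate 1 the noncoding genes called were 669, 611 and 0, and all rows called 2369, 1685 and 9. Leaving out 1 library at a time gave 0 to 189, 0 to 3 and 0 to 0 noncoding genes called, and 0 to 768, 0 to 6 and 0 to 0 of all rows. The medians ran from -1.07 to -0.45, from 0.55 to 1.17 and from -0.09 to 0.24. With both libraries left out the medians were -0.63, 0.55 and -0.09. Scaling on the noncoding genes alone brought the first and second medians to 0.0024 and 0.0111, which follows from its construction. The share of counts moved with the overlap rule, to 19.5, 12.8 and 18.3% at 1000 bp and to 18.9, 12.8 and 17.7% where the overlap covered at least 50% of the noncoding span, for palmitic acid + carnitine, palmitic acid and control, since fewer genes met it. The ratio to the opposite gene was 3.36 with a pseudocount of 1 and 2.50 with no minimum count. The replicate numbers did not pair the libraries, with correlations of same-numbered libraries between -0.41 and 0.28, and the fit with a replicate block called 0 noncoding genes and 0 of all rows in each comparison. The cause of these changes was not tested beyond what each construction sets. The lowest genes, such as Gas5, rest on few counts per library.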
